A study of Rattus norvegicus with 6 samples.

Results

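The ribosome biogenesis genes described here are the 77 genes that the deposited rat gene table assigns to the KEGG pathway of ribosome biogenesis in eukaryotes, out of 22250 genes in the table. Of the 77, 71 had enough reads to be tested between aged and young donor hearts. Of these 71 genes, 30 were higher in aged donor hearts and 2 were lower by the limits used in the study, a fold of more than 1.5 or less than 0.67 whose unadjusted p-value is under 0.05. By the same limits 13.2% of all genes tested were higher and 19.0% lower. After Benjamini-Hochberg adjustment of the same test, 0 of the 71 genes and 0.0% of all genes had an adjusted p-value under 0.05. Leaving out 1 heart moved the number of higher ribosome biogenesis genes between 9 and 47 (12.7% to 66.2%), beside 5.83% to 26.9% of all genes. With the level of cardiomyocyte markers as a covariate the number was 4 (5.63%), beside 3.07% of all genes. The higher genes included 4 of 4 genes of the UTP-A complex and 5 of 6 of the UTP-B complex, which take part in making the small ribosomal subunit, but 1 of 5 of the UTP-C group. Of 12 genes of large subunit maturation, 5 were higher and 2, Gnl3l and Nmd3, were lower.

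Ribosomes are assembled in the nucleolus, where RNA polymerase I makes a long precursor RNA that is modified, folded and cut while ribosomal proteins bind to it. Small nucleolar ribonucleoproteins of the box C/D type guide methylation of the precursor, those of the box H/ACA type guide pseudouridylation, and a large assembly called the small subunit processome, with the UTP-A, UTP-B, UTP-C and MPP10 complexes, carries out the early cuts. The subunits then leave the nucleus through export factors and finish maturing in the cytoplasm. In heart muscle, ribosome production is known to increase when the tissue grows under load.

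RNA came from left ventricular myocardium of wild-type Sprague-Dawley rat hearts on postoperative day 1 after heterotopic heart transplantation, in which the graft is connected to the recipient's circulation beside its own heart and does not pump against a normal load. The 3 young donor hearts (animals 3, 13 and 15) came from rats of 10 weeks and the 3 aged donor hearts (animals 3, 4 and 7) from rats of 1 year, and the hearts of both groups had been kept in cold cardioplegic solution before transplantation into young recipients. Animal numbers count within a group, so both groups have an animal 3. The libraries held polyadenylated RNA of the whole tissue, and fewer cells of a type cannot be told apart from less RNA per cell.

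The libraries held 21457509 to 22277905 reads on genes in young and 22508040 to 24560869 in aged donor hearts. Before scaling between libraries, 3 reads correspond to 0.122 to 0.140 CPM (read counts relative to the library size). After the scaling given next this level differs, and the 3 reads of Nxf2 in aged animal 4 were 0.114 CPM. The 13 genes of the mitochondrial genome took 11.9% to 21.7% of the reads in young and 6.57% to 10.3% in aged donor hearts, and CPM values here were therefore scaled between libraries with TMM factors, which leave out genes of extreme ratio. Young animal 15 stood apart from young animals 3 and 13. The summed level of 12 cardiomyocyte markers was 101448 and 111491 CPM in young animals 3 and 13 and 14833 CPM in young animal 15. In aged animals 3, 4 and 7 it was 633, 10091 and 9733 CPM, so aged animal 3 lay far below the other aged hearts. Reads of these markers were thus found in every heart, at levels that differed widely.

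The share of all reads that fell on the 77 genes was 0.195% in young animal 3, 0.182% in young animal 13 and 0.387% in young animal 15, and it was 0.477%, 0.469% and 0.489% in aged animals 3, 4 and 7. The aged group was thus above the young group without overlap, with means of 0.479% ± 0.0102 (SD, n = 3) and 0.255% ± 0.115 (SD, n = 3). With the reads of the mitochondrial genome left out of the total, the shares were 0.522% ± 0.0204 (SD, n = 3) in aged and 0.307% ± 0.115 (SD, n = 3) in young donor hearts. Shares of reads are relative to library totals, and on that scale other genes also tended to be higher in aged donor hearts. With library totals alone as the scale, the median log2 fold change was 0.46 over all genes tested, beside 1.07 for the 71 ribosome biogenesis genes tested.

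Among the 71 genes tested, 30 (42.3%) were past the limits and higher in aged donor hearts, where 13.2% of all 13784 genes tested were. Another 2 (2.82%) were past the limits and lower, against 19.0% of all genes tested. The log2 fold change was positive for 59 genes and negative for 12, with a median of 0.68 beside 0.017 over all genes tested. In 38 of the 71 genes the 3 aged donor hearts all lay above the 3 young donor hearts, which held for 21.0% of all genes, and in 4 genes they all lay below, which held for 20.6% of all genes. The 38 include 27 of the 30 higher genes, while in Nol6, Nop58 and Utp14a the groups overlapped. After Benjamini-Hochberg adjustment of edgeR's quasi-likelihood test over all genes, 0 of the 71 genes and 0.0% of all genes had an adjusted p-value under 0.05. The smallest adjusted p-value was 0.0916, and those of the 32 genes past the limits ran from 0.0916 to 0.14. An unadjusted p-value under 0.05 was found for 34 of the 71 genes (47.9%), beside 34.3% of all genes. The adjusted p-value of DESeq2 was under 0.05 for 17 of the 71 genes (23.9%), beside 26.1% of all genes that it gave one for, and that of limma-voom for 57 (80.3%), beside 61.1% of all genes. With library totals alone as the scale, the median log2 fold change of all genes moved to 0.46, the shares of all genes called higher and lower became 22.8% and 10.5%, and 39 of the 71 genes were higher and 0 lower.

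**Figure D1:**
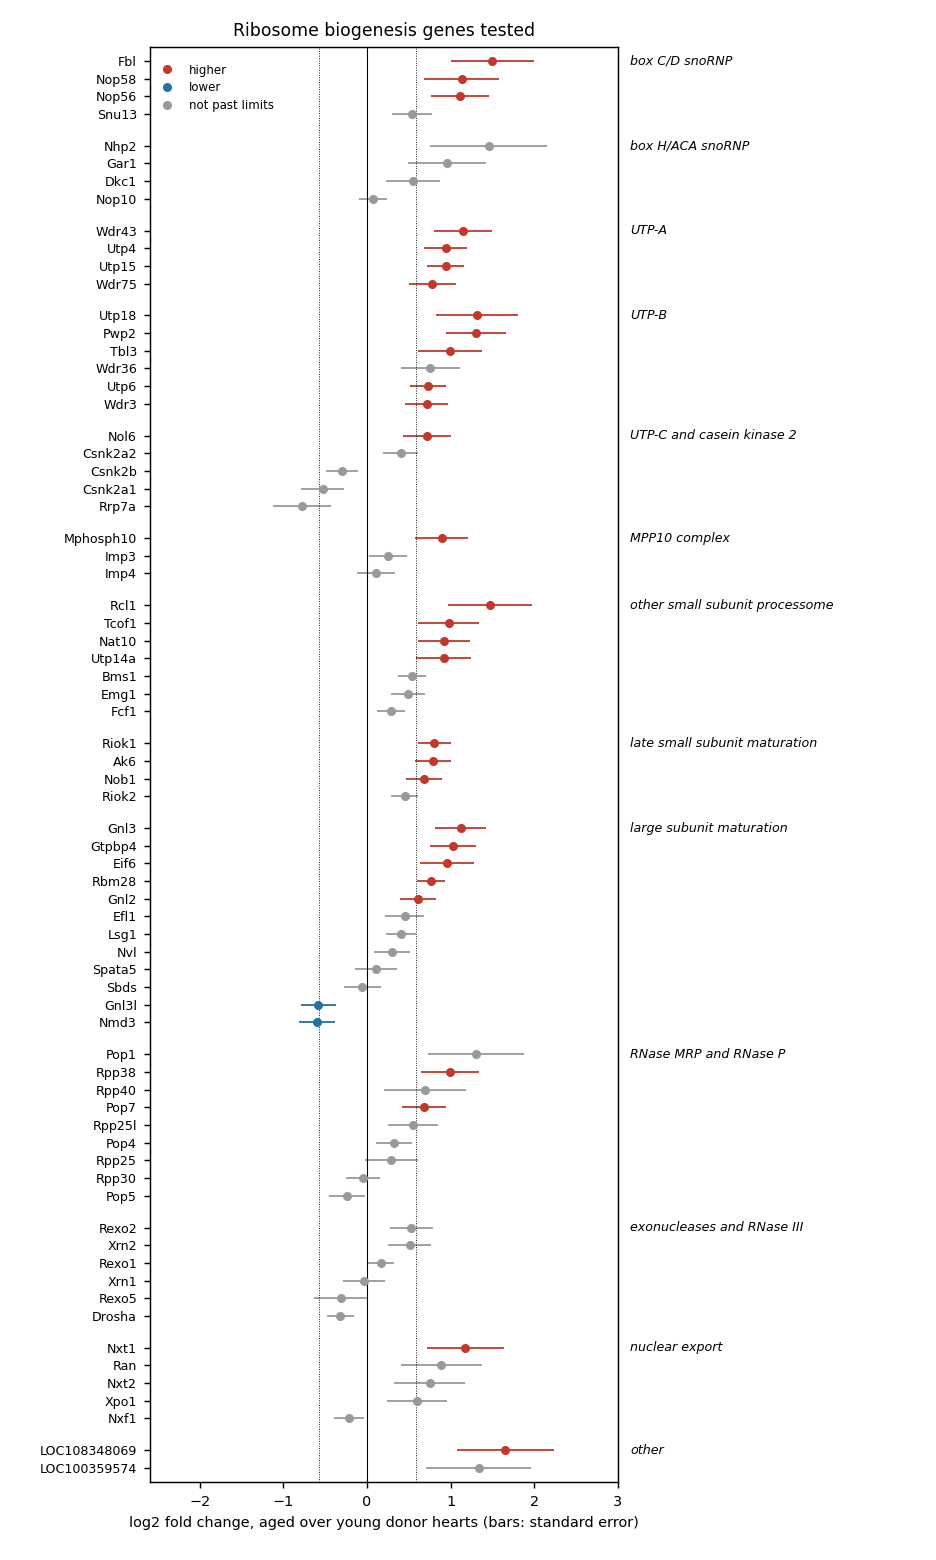
Log2 fold change of each of the 71 ribosome biogenesis genes tested, aged over young donor hearts, on the horizontal axis, with genes grouped by role on the vertical axis; points are the fitted values of edgeR's quasi-likelihood test, bars are 1 standard error and dotted lines mark the fold change limits of 1.5 and 0.67. The 30 genes past the limits and higher are red, from 0.61 to 1.65, and the 2 lower genes, Gnl3l and Nmd3, are blue.

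Promoter windows from RefSeq on the GRCr8 build, from 250 bases before to 50 bases after the start of the gene, were found for 65 of the 77 genes. The letters CACGTG, the E-box that Myc and related factors are known to bind, occurred in 17 of the 65 windows (26.2%). They occurred in 6.65% of the 27457 RefSeq windows, which include genes with no reads in these hearts. Among genes tested, they were in 15 of 60 windows of the pathway (25.0%) and in 9.22% of all windows, which 10826 of 13784 genes had. The E-box was in 9 of 25 windows of higher genes (36.0%) and in 6 of 35 windows of genes tested and not higher (17.1%). CCGGAAG, a site type of ETS factors, searched like the E-box on both strands, occurred in 33 of the 65 windows (50.8%) against 9.22% of all RefSeq windows. Among genes tested, it was in 32 of 60 windows of the pathway (53.3%) and in 16.8% of all windows. The shares were 52.0% among higher genes and 54.3% among the others of the pathway tested. GGGCGG, the GC box to which Sp1 is known to bind, occurred in 41 of the 65 windows (63.1%) against 34.9% of all RefSeq windows. Among genes tested, it was in 41 of 60 windows of the pathway (68.3%) and in 60.8% of all windows. The shares were 76.0% among higher genes and 62.9% among the others of the pathway tested. These shares are descriptions of letters in a window and were not tested.

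The 100 bases before the start are shown for 4 of the genes, 5′ to 3′ on the strand of the gene, with CACGTG and CCGGAAG, or its reverse complement CTTCCGG, in capitals. Gnl3 and Gnl3l are shown because these related genes moved in opposite directions, and Utp4 and Utp18 because they are higher genes with both kinds of letters in this stretch. They lie at chr16:6219783-6219882 (Gnl3, minus strand), chrX:23437502-23437601 (Gnl3l, minus strand), chr19:51702141-51702240 (Utp4, plus strand) and chr10:79335758-79335857 (Utp18, minus strand).
Gnl3: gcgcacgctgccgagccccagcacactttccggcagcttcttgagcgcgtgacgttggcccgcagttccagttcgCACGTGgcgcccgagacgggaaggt
Gnl3l: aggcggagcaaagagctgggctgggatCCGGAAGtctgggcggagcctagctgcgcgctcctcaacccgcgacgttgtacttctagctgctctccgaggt
Utp4: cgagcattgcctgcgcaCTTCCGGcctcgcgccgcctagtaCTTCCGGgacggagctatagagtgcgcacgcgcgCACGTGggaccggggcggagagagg
Utp18: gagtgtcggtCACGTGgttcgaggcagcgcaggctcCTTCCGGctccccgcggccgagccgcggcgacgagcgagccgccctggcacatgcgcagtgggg
The E-box begins 25 bases before the start in both Gnl3 and Utp4, and 90 bases before it in Utp18, whose window holds another one 3 bases after the start, and none is in the Gnl3l window.

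Of the core proteins of the box C/D ribonucleoproteins, 3 of the 4 tested were higher in aged donor hearts. Fbl (ENSRNOG00000019229, chr1:85103519-85112619 on Rnor_6.0, as all gene positions below) encodes fibrillarin, the methyltransferase of these particles. Its level was 13.9, 15.7 and 48.2 CPM in young animals 3, 13 and 15 and 73.3, 80.8 and 66.3 CPM in aged animals 3, 4 and 7, the order used for all genes below. The groups did not overlap, with young animal 15 between the other young hearts and the aged ones, and the log2 fold change was 1.5 (standard error, SE, 0.501, adjusted p = 0.105). Nop56 (ENSRNOG00000007128, chr3:122803772-122808558) and Nop58 encode the paired scaffold proteins of the particle. Nop56 was at 36.8, 36.1 and 78.6 CPM in young and at 104, 103 and 121 CPM in aged donor hearts, without overlap, and the log2 fold change was 1.11 (SE 0.344, adjusted p = 0.0975). Nop58 had a similar log2 fold change of 1.14 (adjusted p = 0.134), but young animal 15, at 88.0 CPM, lay just above aged animal 4, at 87.9 CPM. Snu13, which binds the guide RNA and is also a spliceosome protein, was not past the limits (log2 fold change 0.54, adjusted p = 0.157).

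None of the 4 box H/ACA proteins was past the limits, and none had an unadjusted p-value under 0.05 in edgeR's test, although all 4 log2 fold changes were positive. Dkc1, the pseudouridine synthase dyskerin, had a log2 fold change of 0.55 (adjusted p = 0.248), Gar1 one of 0.95 (adjusted p = 0.191) and Nop10 one of 0.075 (adjusted p = 0.764). Nhp2 was counted at 0.0605 to 0.536 CPM, from 1, 1 and 8 reads in young and 13, 11 and 14 reads in aged donor hearts, and had a log2 fold change of 1.45 (adjusted p = 0.183).

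The UTP-A complex, which binds the start of the precursor RNA, was the role group in which each member tested, 4 of 4, was higher and without overlap between the groups. Utp15 (ENSRNOG00000016591, chr2:28353854-28370261) was at 18, 20.3 and 25.9 CPM in young and at 45.1, 32.3 and 45.6 CPM in aged donor hearts. The young hearts were close together here, and the log2 fold change was 0.94 (SE 0.227, adjusted p = 0.0916). Utp4 (ENSRNOG00000020333, chr19:39087990-39116125), one of the genes whose promoter is shown, was at 26.7, 26.8 and 46.1 CPM in young and at 60.4, 65.7 and 65.1 CPM in aged donor hearts, with a fitted log2 fold change of 0.94 (SE 0.256, adjusted p = 0.092). Wdr43 and Wdr75, WD repeat proteins of the same complex, had log2 fold changes of 1.14 (adjusted p = 0.0958) and 0.78 (adjusted p = 0.117). Over the fits without 1 heart, Wdr43 ran from 0.94 to 1.65 and Wdr75 from 0.59 to 1.17, both largest without young animal 15. Among these fits Wdr75 was past the limits only without young animal 15.

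In the UTP-B complex, also made largely of WD repeat proteins, 5 of 6 members were higher. Pwp2 (ENSRNOG00000001210, chr20:11228844-11243205) had the smallest p-value of the complex, with 24.4, 27.0 and 55.8 CPM in young and 72.7, 95.5 and 96.4 CPM in aged donor hearts. Its aged hearts lay well above all young hearts, and its log2 fold change was 1.30 (SE 0.356, adjusted p = 0.092). Utp6 (ENSRNOG00000014209, chr10:67257161-67285617) was at 24.0, 21.2 and 33.0 CPM in young and at 42.0, 40.1 and 47.8 CPM in aged donor hearts, with a fitted log2 fold change of 0.73 (SE 0.215, adjusted p = 0.0936). Utp18, whose promoter is shown, had a log2 fold change of 1.32 (adjusted p = 0.123), Tbl3 one of 0.99 (adjusted p = 0.13) and Wdr3 one of 0.71 (adjusted p = 0.118). Over the fits without 1 heart, the log2 fold change of Utp18 ran from 1.03 to 2.15 and that of Tbl3 from 0.76 to 1.59. Both were largest without young animal 15, the only one of these fits in which they were past the limits. Wdr36 was not past the limits (log2 fold change 0.76, adjusted p = 0.171).

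The UTP-C group combines nucleolar proteins with casein kinase II, a kinase with many other targets, and 1 of its 5 members was higher. This was Nol6 (ENSRNOG00000010409, chr5:57445344-57455018), at 39.7, 41.3 and 65.4 CPM in young and 59.3, 81.9 and 99.4 CPM in aged donor hearts. Young animal 15 lay above aged animal 3, so the groups overlapped, with a log2 fold change of 0.72 (SE 0.289, adjusted p = 0.14). The kinase subunits had log2 fold changes of -0.53 for Csnk2a1 (adjusted p = 0.187), 0.40 for Csnk2a2 (adjusted p = 0.216) and -0.30 for Csnk2b (adjusted p = 0.285). Rrp7a, at 2.27 to 6.72 CPM, had one of -0.78 (adjusted p = 0.163), the lowest among the 71 genes, with all aged below all young hearts. The span of Rrp7a overlaps Serhl2 on the other strand over 9853 bases, so its reads are uncertain. The median of the group, -0.30, was the only negative one among the role groups.

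Of the MPP10 complex, which joins the processome around the precursor, Mphosph10 (ENSRNOG00000016266, chr1:125212849-125229052) was higher. It was at 17.7, 18.2 and 33.5 CPM in young and at 43.0, 33.6 and 52.3 CPM in aged donor hearts. Young animal 15 and aged animal 4 nearly met, and the log2 fold change was 0.89 (SE 0.319, adjusted p = 0.116). Its partners Imp3 and Imp4 had log2 fold changes of 0.25 (adjusted p = 0.439) and 0.11 (adjusted p = 0.753).

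Among 7 other processome factors, 4 were higher. Nat10 (ENSRNOG00000008663, chr3:93658117-93698136), an RNA acetyltransferase, was at 21.5, 19.9 and 41.9 CPM in young and at 51.5, 51.3 and 54.9 CPM in aged donor hearts. The aged hearts were nearly equal and above all young hearts, at a log2 fold change of 0.92 (SE 0.312, adjusted p = 0.108). Rcl1 (ENSRNOG00000015491, chr1:247228061-247305693), a partner of the GTPase Bms1, was at 15.9, 16.7 and 51.4 CPM in young and at 63.7, 74.1 and 95.5 CPM in aged donor hearts, with a fitted log2 fold change of 1.47 (SE 0.502, adjusted p = 0.109). Tcof1, which encodes treacle, a nucleolar protein needed for ribosomal RNA transcription, had a log2 fold change of 0.98 (adjusted p = 0.123), and Utp14a one of 0.91 (adjusted p = 0.116). Over the fits without 1 heart, Tcof1 ran from 0.75 to 1.55, and among them it was past the limits only without young animal 15. Bms1 itself had an unadjusted p-value under 0.05 but a log2 fold change of 0.53, under the fold change limit. Emg1, a methyltransferase, and Fcf1, an endonuclease of the processome, had log2 fold changes of 0.49 (adjusted p = 0.148) and 0.28 (adjusted p = 0.258).

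Factors that finish the small subunit were higher in 3 of 4 cases, and in each of the 4 the aged hearts lay above the young hearts. Riok1 (ENSRNOG00000014049, chr17:27429416-27452314), an atypical kinase of the late precursor, was at 20.8, 17.2 and 24.7 CPM in young and at 38.3, 32.3 and 38.8 CPM in aged donor hearts, with a fitted log2 fold change of 0.80 (SE 0.199, adjusted p = 0.0916). Ak6 (ENSRNOG00000039848, chr2:30664217-30676464), a nuclear adenylate kinase, was at 8.11, 7.63 and 10.5 CPM in young and at 14.8, 15.3 and 15.4 CPM in aged donor hearts, with a fitted log2 fold change of 0.79 (SE 0.214, adjusted p = 0.0919). In both genes young animal 15 was nearer to the other young hearts than in Fbl or Rcl1. Nob1, the nuclease that makes the final cut of the small subunit RNA, had a log2 fold change of 0.68 (adjusted p = 0.0993). Riok2 likewise had an unadjusted p-value under 0.05 with a log2 fold change of 0.45, under the fold change limit.

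Of the 12 factors of large subunit maturation, release and recycling, 5 were higher and 2 lower, the only role group with calls in both directions. Rbm28 (ENSRNOG00000005468, chr4:56398769-56438465), a nucleolar RNA-binding protein, had the smallest p-value of all 71 genes, with 20.7, 18.9 and 24.3 CPM in young and 35.5, 35.6 and 37.7 CPM in aged donor hearts. Both groups were narrow, and its log2 fold change was 0.77 (SE 0.167, adjusted p = 0.0916). Gtpbp4 (ENSRNOG00000016217, chr17:63110254-63145577), a nucleolar GTPase, was at 18.1, 16.5 and 29.8 CPM in young and at 41.4, 39.0 and 50.7 CPM in aged donor hearts, with a fitted log2 fold change of 1.02 (SE 0.273, adjusted p = 0.0916). Eif6, which keeps the subunits apart until the large one is mature, had a log2 fold change of 0.96 (adjusted p = 0.107). Efl1 and Sbds, which together release Eif6, were not past the limits (log2 fold changes 0.45 and -0.057, adjusted p = 0.207 and adjusted p = 0.87). Lsg1, a cytoplasmic GTPase that releases Nmd3, had one of 0.41 (adjusted p = 0.161), and the ATPases Nvl and Spata5 had 0.30 (adjusted p = 0.337) and 0.11 (adjusted p = 0.767).

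Nmd3 (ENSRNOG00000009310, chr2:166402838-166428331), the adaptor that carries the large subunit out of the nucleus, was lower. Its level was 54.3, 48.1 and 36.6 CPM in young and 27.1, 29.1 and 35.4 CPM in aged donor hearts. Young animal 15 and aged animal 7 differed by little, though the groups did not overlap, and the log2 fold change was -0.60 (SE 0.212, adjusted p = 0.114). Gnl3l (ENSRNOG00000002509, chrX:20034882-20070578), a nucleolar GTPase, was at 178, 170 and 125 CPM in young and at 96.5, 102 and 117 CPM in aged donor hearts. Again the groups did not overlap, with a log2 fold change of -0.58 (SE 0.211, adjusted p = 0.118), and its fold of 0.668 lay just inside the limit. With library totals alone, neither was past the limits, and their log2 fold changes were -0.12 and -0.10.

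RNase MRP, which cuts the precursor RNA, and RNase P, which trims transfer RNA, share most of their proteins, and 2 of the 9 tested were higher. Rpp38 (ENSRNOG00000038025, chr17:78915604-78919143) was at 5.81, 4.58 and 9.46 CPM in young and at 9.95, 13.8 and 15.9 CPM in aged donor hearts, with a fitted log2 fold change of 1.00 (SE 0.348, adjusted p = 0.113). Pop7 (ENSRNOG00000025310, chr12:22259713-22260754) was at 10.6, 12.6 and 15.9 CPM in young and at 17.1, 26.7 and 19.1 CPM in aged donor hearts, with a fitted log2 fold change of 0.68 (SE 0.266, adjusted p = 0.131). In both genes the lowest aged heart lay close to young animal 15. Pop1, the largest protein of the complexes, had a log2 fold change of 1.30 with a wide standard error of 0.570 (adjusted p = 0.158), and the other 6 ran from -0.24 for Pop5 to 0.69 for Rpp40.

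None of the 6 exonucleases and RNase III enzymes was past the limits or had an unadjusted p-value under 0.05 in edgeR's test, and their median log2 fold change was 0.065. Xrn2, which trims precursors in the nucleus, had 0.51 (adjusted p = 0.195), and Drosha, better known for processing microRNA precursors, had -0.32 (adjusted p = 0.201) with all aged hearts below all young ones. The exonucleases Rexo1, Rexo2 and Rexo5 had log2 fold changes of 0.17, 0.53 and -0.32.

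In nuclear export, 1 of 5 genes tested was higher. Nxt1 (ENSRNOG00000004700, chr3:142993658-142996578), a cofactor of messenger RNA export, was at 6.96, 6.80 and 19.9 CPM in young and at 24.0, 25.6 and 26.9 CPM in aged donor hearts, with a fitted log2 fold change of 1.18 (SE 0.456, adjusted p = 0.13). Ran, the GTPase that drives nuclear transport, was at 137, 141 and 401 CPM in young and at 346, 525 and 386 CPM in aged donor hearts, so that young animal 15 lay within the aged range (log2 fold change 0.89, adjusted p = 0.226). Xpo1, the exportin that carries both subunits, had a log2 fold change of 0.60 (adjusted p = 0.256).

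The largest log2 fold change of the 71 genes, 1.65 (SE 0.580, adjusted p = 0.113), belonged to LOC108348069 (ENSRNOG00000047594, chr17:66446162-66619250), described in the table as a HEAT repeat-containing protein 1, a name that belongs to a protein of the UTP-A complex. It rests on few reads, 11, 13 and 66 in the young group and 131, 103 and 139 in the aged group, or 0.665, 0.827 and 2.73 CPM and 4.30, 3.90 and 5.33 CPM. Every aged heart was above every young heart. Its span overlaps Lgals8 on the other strand and another gene on the same strand. LOC100359574, described as similar to Snu13, had 12, 22 and 103 reads in the young group and 164, 152 and 135 in the aged group and was not past the limits (log2 fold change 1.34, adjusted p = 0.178), and reads shared with Snu13 itself are uncertain.

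The 6 genes that could not be tested were Fbll1, Nxf3, Nxf7 and RGD1306195, each with 0 reads in every heart, Rasl2-9 and Nxf2. Rasl2-9 had 1 read in all, in aged animal 4. Nxf2, a relative of the messenger RNA export receptor Nxf1, had 1, 0 and 1 reads in young and 68, 3 and 34 reads in aged animals 3, 4 and 7. In aged animal 4 Nxf2 was thus at the level of 3 reads, and it did not pass the filter on low counts.

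**Figure D2:**
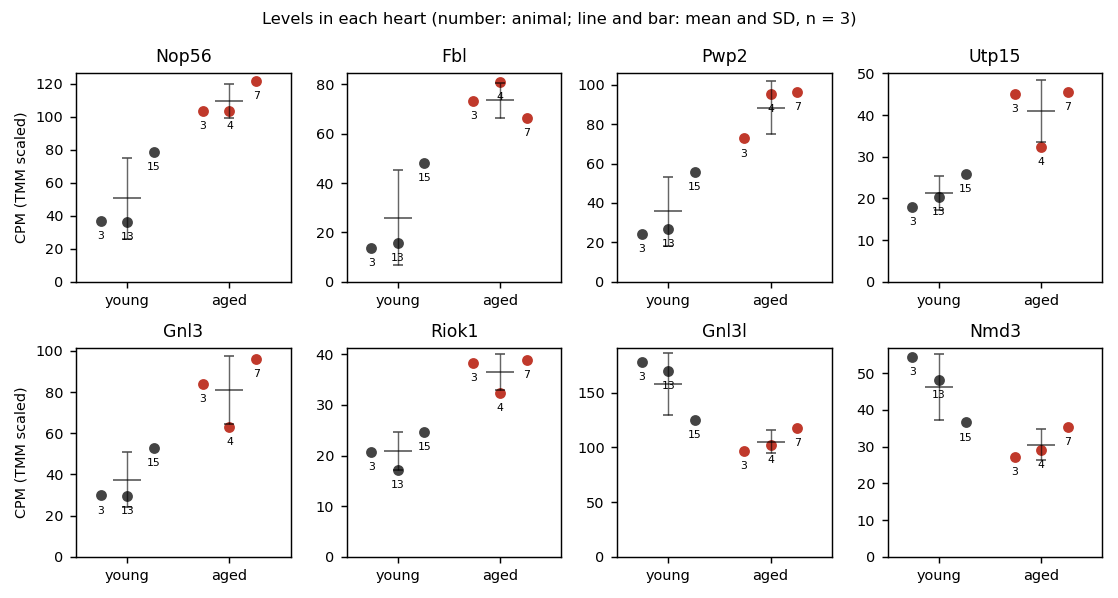
Level of 8 ribosome biogenesis genes in each heart, in TMM-scaled CPM on the vertical axis, for the young and aged groups on the horizontal axis; points are hearts marked with the animal number, and lines and bars are the mean and SD of 3 hearts. In Nop56, Fbl, Pwp2, Utp15, Gnl3 and Riok1 young animal 15 is the highest young heart and lies below the aged hearts, and in Gnl3l and Nmd3 it is the lowest young heart and lies above them.

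Values of related genes within the pathway are set side by side here, and no difference between them was tested. Gnl3, which encodes nucleostemin, was at 29.8, 29.4 and 52.7 CPM in young and at 84.0, 63.1 and 95.9 CPM in aged donor hearts (log2 fold change 1.12, SE 0.302, adjusted p = 0.0919). Gnl2, a GTPase of the same family that also acts in large subunit assembly, was at 36.8, 33.1 and 49.7 CPM in young and at 59.2, 55.1 and 68.4 CPM in aged donor hearts (log2 fold change 0.61, adjusted p = 0.11). The Gnl3l values given above ran the other way, so the family held 2 higher genes and 1 lower gene, all without overlap between the groups. Per length, the level of Gnl3 over the 6 hearts, at a mean of 33.3 FPKM, was near that of Gnl3l, at 28.1 FPKM, and above that of Gnl2, at 13 FPKM.

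The catalytic subunits of casein kinase II also differed in sign. Csnk2a1 was at 138, 145 and 89.4 CPM in young and at 68.9, 93.8 and 95.3 CPM in aged donor hearts, and Csnk2a2 at 33.0, 28.3 and 45.6 CPM in young and at 48.4, 46.0 and 47.0 CPM in aged donor hearts. Neither was past the limits, and the groups overlapped in Csnk2a1. Riok1 was higher and Riok2 under the fold change limit, with both above in all aged hearts. Nxt1 was higher, and Nxt2, at 2.16 to 7.13 CPM, had a log2 fold change of 0.75 (adjusted p = 0.239). The log2 fold changes of Xrn1 and Xrn2 were -0.036 and 0.51, those of Rpp25 and Rpp25l were 0.29 and 0.55, and that of Nxf1 was -0.22 (adjusted p = 0.399).

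On the FPKM scale, which divides by gene length, the 71 genes had a median of 16.5 over the 6 hearts, against 10.1 for all genes tested. The highest was Ran at 319 FPKM, followed by Snu13 at 166 FPKM and Nop10 at 75.0 FPKM. The lowest was LOC108348069 at 0.249 FPKM. Among the higher genes Eif6, at 69.0 FPKM, had the largest mean, followed by Fbl at 47.1 FPKM, Nop56 at 46.0 FPKM and Nop58 at 44.8 FPKM.

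Young animal 15 had the highest level of the 3 young hearts in 57 of the 71 genes and in 30 of the 30 higher genes. It lay within the range of the aged hearts in 24 of the 71 and in 3 of the 30. How often either pattern held over all genes tested was not counted. On a log2 CPM scale, the mean of young animals 3 and 13 was set to 0% and that of the aged hearts to 100%. Young animal 15 then lay between 33.8% and 82.6% in the 30 higher genes, with a median of 69.2%. These 30 genes were picked for higher aged levels, so the values given for them partly follow from that choice. The median log2 CPM of the 71 genes was 4.57, 4.54 and 5.36 in young animals 3, 13 and 15. For aged animals 3, 4 and 7 this median was 5.50, 5.53 and 5.63. By this measure young animal 15 lay nearer to the aged hearts than to the other young hearts. Over all genes tested, the median ran from 4.44 to 4.53 across the 6 hearts.

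Leaving out 1 heart changed the counts. Without young animal 15, 47 of the 71 genes were higher and 4 lower, beside 26.9% and 24.2% of all genes. In that fit the log2 fold changes of the 30 higher genes ran from 0.84 for Gnl2 to 2.63 for LOC108348069, with 2.35 for Fbl, 2.29 for Rcl1 and 1.93 for Nxt1. The smallest values of Fbl, Rcl1 and Nxt1 over the fits without 1 heart were 1.20, 1.19 and 0.92. Without young animal 3 or young animal 13, 9 genes were higher, beside 5.83% and 6.13% of all genes. Without aged animals 3, 4 and 7 in turn, 20, 14 and 11 genes were higher, beside 7.47%, 9.97% and 8.79% of all genes. The lower count was 1 without aged animal 7 and 0 without any of young animal 3, young animal 13, aged animal 3 or aged animal 4. The 8 genes that were higher with all hearts and in each of these 6 fits were Ak6, Gnl3, Gtpbp4, Pwp2, Rbm28, Riok1, Utp15 and Utp4. The share of all genes that stayed higher in every fit was not counted. The median log2 fold change of the 71 genes ran from 0.54 to 0.91 over the 6 fits.

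**Figure D3:**
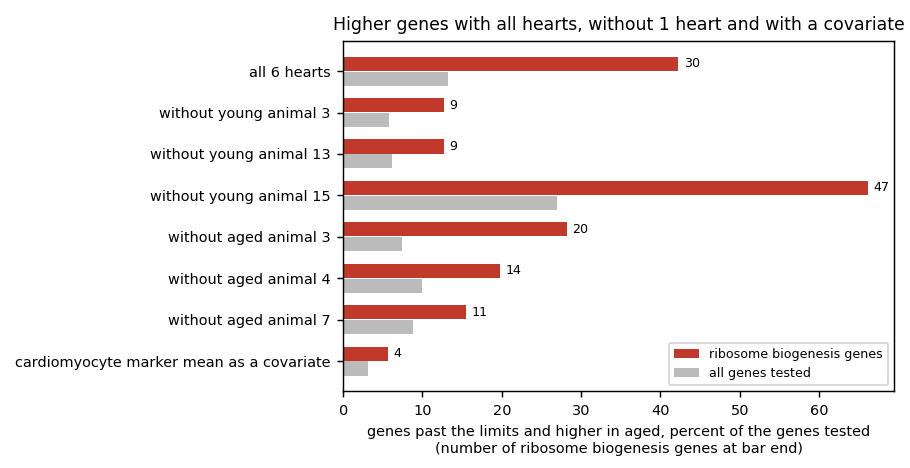
Share of genes past the limits and higher in aged donor hearts, in percent of the genes tested on the horizontal axis, for fits with all 6 hearts, without each heart in turn and with a covariate on the vertical axis; red bars are the ribosome biogenesis genes, with their number at the bar end, and grey bars are all genes tested. The number runs from 9 without young animal 3 or 13 to 47 without young animal 15, and is 4 with the cardiomyocyte marker mean as a covariate.

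Cell type markers also differed between the groups, with some lists higher and others lower in aged donor hearts. Of 12 cardiomyocyte markers, 5 were past the limits and lower in aged donor hearts. Of 10 neutrophil markers, 8 had enough reads to be tested and all 8 were higher, with a summed level of 16.3 to 136 CPM in young and 347 to 1313 CPM in aged donor hearts, while Mpo had 0 reads in some hearts. Of 10 macrophage markers, 5 were higher, with a summed level of 369 to 2352 CPM in young and 3685 to 7093 CPM in aged donor hearts. The T cell markers, 6 of 8 tested with Cd3d and Cd5 at 0 reads in some hearts, held 2 higher genes, at 29.4 to 80.7 CPM in young and 96.3 to 145 CPM in aged donor hearts. Endothelial markers (0 of 7 higher and 1 lower, 1187 to 1744 CPM in young and 950 to 1442 CPM in aged hearts), fibroblast markers (0 of 7 higher and 2 lower, 6367 to 8181 CPM and 2342 to 4488 CPM) and red blood cell markers (0 of 3 higher and 1 lower, 131 to 1137 CPM and 49.4 to 607 CPM) showed no higher gene. The 9 proliferation markers had a median log2 fold change of -0.48 and a summed level of 257 to 666 CPM in young and 154 to 429 CPM in aged donor hearts.

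With the mean log2 CPM of the cardiomyocyte markers as a covariate, 4 ribosome biogenesis genes were past the limits and higher, Imp3, Nob1, Pwp2 and Rbm28, of which Nob1, Pwp2 and Rbm28 were also among the 30, and 0 were lower. In that fit 3.07% of all genes were higher. The median log2 fold change of the 71 genes was then 0.54. The part of leukocytes in the higher levels was not tested.

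Genes of the same process outside the pathway list were counted in the same fit. Of 81 other nucleolar assembly factors tested, 47 (58.0%) were higher and 1 lower, with a median log2 fold change of 0.86. The abundant nucleolar proteins nucleolin and nucleophosmin were among the higher ones. Ncl was at 237, 230 and 544 CPM in young and at 684, 603 and 767 CPM in aged donor hearts (log2 fold change 1.02, adjusted p = 0.138), and Npm1 at 160, 143 and 427 CPM in young and at 544, 482 and 579 CPM in aged donor hearts (log2 fold change 1.14, adjusted p = 0.144). The smallest p-values in this list belonged to Urb1 (log2 fold change 1.01, adjusted p = 0.0916), Rpf1 (0.79, adjusted p = 0.0916) and Urb2 (0.89, adjusted p = 0.0916), which act in large subunit assembly, and the lower gene was Ngdn (-0.78, adjusted p = 0.139). Of 14 genes of the RNA exosome, which trims the precursor from its end, 7 were higher and 0 lower, led by Exosc3 (0.98, adjusted p = 0.0916), Exosc2 (1.14, adjusted p = 0.092) and Exosc1 (0.85, adjusted p = 0.109).

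Of 19 genes of the RNA polymerase I machinery, 5 (26.3%) were higher and 0 lower, with a median log2 fold change of 0.32. Taf1c, a subunit of its promoter factor, had a log2 fold change of 0.87 (adjusted p = 0.0916), and the polymerase subunit genes Polr1b and Znrd1 had 0.93 (adjusted p = 0.0942) and 0.83 (adjusted p = 0.0953). Polr1b was at 17.5, 20.5 and 32.3 CPM in young and at 39.4, 42.0 and 52.6 CPM in aged donor hearts, without overlap. Polr1a, the largest subunit, had 0.38 (adjusted p = 0.165), and the initiation factors Rrn3 and Ubtf had 0.17 (adjusted p = 0.554) and 0.094 (adjusted p = 0.695).

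Myc, a transcription factor known to act on many ribosome biogenesis genes, was at 5.38, 6.23 and 76.8 CPM in young and at 133, 142 and 180 CPM in aged donor hearts. All aged hearts were above all young hearts, but young animal 15 was far from the other young hearts, and Myc was not past the limits (log2 fold change 2.36, SE 1.06, adjusted p = 0.165). Mycn, its relative, was lower, at 7.50, 9.28 and 1.69 CPM in young and 0.788, 0.569 and 0.536 CPM in aged donor hearts (log2 fold change -3.27, adjusted p = 0.0916). Of 17 genes of the Myc network and growth control, 1 was higher, Mxd1 (log2 fold change 1.28, adjusted p = 0.116), and 2 were lower, Mycn and Mxd4 (-0.69, adjusted p = 0.107).

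Of the cytosolic ribosomal proteins, the parts that these factors assemble, 5 of 75 tested (6.67%) were higher and 1 was lower. Their median log2 fold change was 0.51 and 72 of 75 values were positive. In 27 of the 75 the aged hearts all lay above the young hearts, beside 21.0% of all genes, and in 0 they all lay below, beside 20.6%. The smallest p-values among the higher ones were those of Rps4y2 (log2 fold change 1.53, adjusted p = 0.0916), Rpl17 (0.87, adjusted p = 0.104) and Rps12 (1.09, adjusted p = 0.109). The lower one was Rpl3l (-4.18, adjusted p = 0.111), a form of a large subunit protein known from striated muscle. Reads of ribosomal protein genes that have near-identical copies are uncertain.

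**Figure D4:**
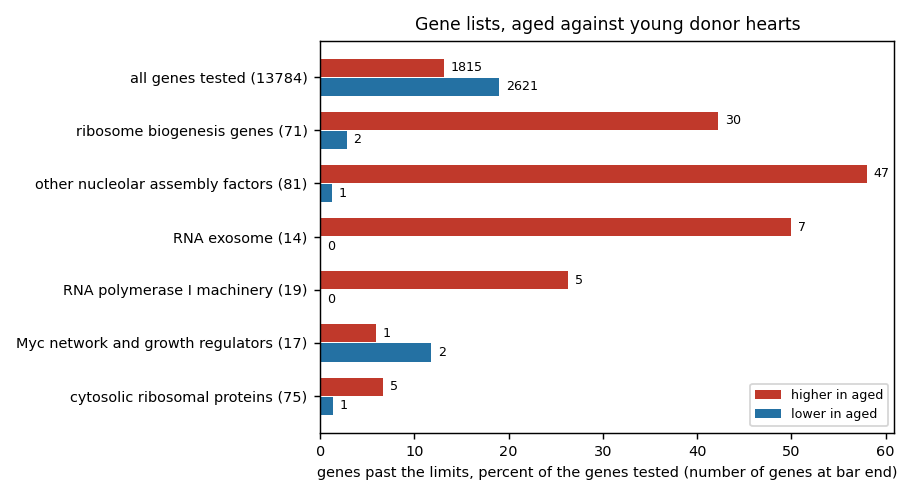
Share of genes past the limits in each list, in percent of the genes tested on the horizontal axis, with the number of genes at the bar end and the number tested in brackets; red bars are genes higher and blue bars genes lower in aged donor hearts. The higher share of all genes tested is 13.2%. The ribosome biogenesis genes (30 higher, 2 lower of 71), other nucleolar assembly factors (47 and 1 of 81), RNA exosome (7 and 0 of 14) and RNA polymerase I machinery (5 and 0 of 19) have larger ones. The Myc network and growth regulators (1 and 2 of 17) and the cytosolic ribosomal proteins (5 and 1 of 75) have smaller ones.

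Reads of 8 of the 77 genes could be shared with an overlapping gene. For genes on opposite strands this depends on the strand setting of the counting, which is not given in the sources used here. Ak6 overlaps Taf9 over 3776 bases, Fbl overlaps Dyrk1b over 373 bases and Csnk2b overlaps Ly6g5b, all on the same strand, where the setting does not matter. Emg1, Gnl2, Rrp7a and LOC100359574 overlap genes on the opposite strand (Lpcat3, Dnali1, Serhl2 and Cacul1), so their values could include reads of those genes.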

How the data were processed

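RNA-Seq of 6 donor hearts (3 young, 3 aged) was analysed from the table that the authors deposited, which holds raw read counts per gene and FPKM values (the count relative to gene length and to the reads counted in the library). The submitters' processing notes name HISAT2 2.0.5, StringTie 1.3.3b, featureCounts 1.5.0-p3, DESeq2 1.16.1, GATK 3.7 and the build Rnor_6.0, without roles or order. Members of the pathway were taken from the pathway column of the table. The pathway, the role groups, the related and marker lists and the genes named were chosen with earlier results of these data known.

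Counts were fitted over the whole table in R 4.3.3 with edgeR 4.0.16 (filterByExpr, TMM scaling, glmQLFit and glmQLFTest, no covariate). Standard errors were obtained as the absolute log2 fold change over the root of F, and Benjamini-Hochberg adjustment ran over the 13784 genes tested. Log2 CPM used a prior count of 2. An exact permutation test of 3 against 3 hearts cannot give a two-sided p-value below 0.1, so none is given for single genes. The limits use the unadjusted p-value, and the p-values printed for genes are the adjusted ones. Genes past the limits are named, and values in every heart are given for the 2 with the smallest p-values in each role group, for lower genes and for related pairs. Alternatives used DESeq2 1.42.0, limma 3.58.1, other scaling, filters and limits, a covariate, and fits without each heart. The fit was also run on simulated counts with the same spread for all genes and no heart that stood apart. That run does not show how the fit acts with a heart such as young animal 15. Promoter windows came from RefSeq tables on GRCr8 and were matched by symbol or gene identifier, without conversion of coordinates.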

Additional observations from a re-analysis of the deposited data

How the results depend on the processing

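With all 6 hearts, 30 of the 71 genes were higher and 2 lower. The higher count was 47 with limma-voom and quality weights (beside 26.8% of all genes) and 4 with the cardiomyocyte covariate (beside 3.07%). It was 11 with fold change limits of 2 and 0.5, for which the share of all genes was not counted. With a Benjamini-Hochberg adjusted p-value under 0.05 it was 0 (beside 0.0%). Over the fits that left out 1 heart each it was 9 to 47 (beside 5.83% to 26.9%). DESeq2's size factors, a filter of 1 CPM in 3 hearts and no filter beyond 1 read each gave 30, DESeq2's test gave 32 (beside 15.6% of all genes) and library totals alone gave 39. The lower count was 4 with limma-voom, 0 with library totals alone, without the filter, with the covariate, with the fold change limits of 2 and 0.5 and with the adjusted p-value, and 0 to 4 over the fits without 1 heart. The median log2 fold change was 1.07 with library totals alone, where the median of all genes was 0.46. Of the 32 genes past the limits, each kept its sign in the 13 other fits, and 3 stayed past the limits with the covariate. The causes of these changes were not tested. No paired analysis was possible because the groups share a single animal number, which counts within each group and names different hearts. A fit without 1 heart compares 2 hearts with 3. Genes near 3 reads per library, such as Nxf2 in most hearts, are limited by depth.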
